A study of Mus musculus with 12 samples.

Results

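The comparison of 30 with 3 µg/kg TCDD sets the highest dose of the series against the lowest, without the vehicle libraries entering the difference. Its members were the 6 libraries that the labels place at these doses, 3 at each, of 12 libraries in all. TCDD, tetrachlorodibenzo-p-dioxin, was given to male C57BL/6 mice by oral gavage in sesame oil. Gavage took place every 4 days for 7 administrations, starting at an age of 28 days, and at an age of 56 days RNA was taken from scrapings labelled proximal ileal epithelium. The 2 groups shared strain, sex, vehicle oil, ages and schedule and differed by label in dose alone. The remaining libraries were 3 of sesame oil vehicle and 3 of 10 µg/kg. They shared no library with the comparison and were set beside it as a second pair, 10 µg/kg against vehicle.

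TCDD is a persistent ligand of the aryl hydrocarbon receptor (AhR), a transcription factor held in the cytosol by chaperones. After binding its ligand the receptor moves to the nucleus, pairs with ARNT and binds DNA elements whose core is GCGTG. Its classical targets are cytochromes P450 of family 1, conjugating enzymes, and Ahrr and Tiparp, which restrain the receptor. In the intestine AhR ligands also come from diet and microbes, and the receptor is known for roles in barrier and immune cells as well as in xenobiotic metabolism.

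The gene counts per library ranged from 14509281 to 16033628 at 3 µg/kg and from 11695887 to 19882816 at 30 µg/kg. The 2 groups differed in more than gene levels. Alignments to more than 1 place made up 31.4 to 33.1% of entries at 3 µg/kg and 36.2 to 38.8% at 30 µg/kg. Reads in no gene were 43.4 to 44.0% of unique reads at 3 and 39.4 to 41.1% at 30 µg/kg. Reads assigned to several genes at once made up 0.643 to 0.692% at 3, 0.630 to 0.643% at 10, 0.811 to 0.829% at 30 µg/kg and 0.807 to 1.11% in vehicle, so that vehicle and 30 µg/kg stood together above 3 and 10 µg/kg. The labels name no batch, and a preparation or sequencing run shared by these pairs of groups cannot be told apart from dose. A clock score, the mean signed deviation of 15 circadian genes, ranged from -0.81 to 0.73 at 3 and from -0.36 to 0.78 at 30 µg/kg, and the ranges overlapped.

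The defining genes of enterocytes were abundant in all 6 libraries. The summed level of 12 enterocyte markers was 19739 to 27363 CPM (a gene's counts relative to the composition-scaled library size) at 3 and 22737 to 28373 CPM at 30 µg/kg. Apoa1, an apolipoprotein, had 4155 to 7120 CPM at 3 and 6610 to 9412 CPM at 30 µg/kg. Vil1, which bundles actin in microvilli, had 3240 to 4473 and 3476 to 3704 CPM, and Fabp2, which carries fatty acids, had 2618 to 3973 and 2353 to 3681 CPM. None of the 12 was called between the doses. Genes that define the bile acid reclaiming part of the ileum were another matter. Fabp6, the ileal bile acid carrier, had at most 0.306 CPM in every library of vehicle, 10 and 30 µg/kg, and 22.9 to 38.3 CPM at 3 µg/kg, so this ileal marker was close to absent from 9 of the 12 libraries.

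Of 15823 genes tested, 770 were called between 30 and 3 µg/kg, that is 4.87%, by an adjusted p under 0.05 and a change of at least 1.5-fold (edgeR quasi-likelihood test, Benjamini-Hochberg adjustment). They comprised 572 genes higher at 30 µg/kg (3.61% of those tested) and 198 lower (1.25%). The CPM of the 3 and 3 libraries did not overlap for 766 of the 770, against 29.3% of all genes tested. Changes of at least 2-fold were found in 292 of the higher and 59 of the lower genes, and of at least 8-fold in 19 and 5. Without the condition on fold, 800 genes were higher and 648 lower. The median change of all genes tested was -0.00 on the log2 scale, and the median of the called genes was 1.02 for those higher and -0.84 for those lower. Leaving out replicate 2 of 30 µg/kg lowered the count to 504, and 352 genes kept their call whichever of the 6 libraries was left out.

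The 770 genes were not spread evenly over kinds of gene. Of the 60 small nucleolar RNAs tested 27 were higher and 0 lower, and of the 10 Cajal body RNAs 8 were higher. Of 13244 protein-coding genes 442 were higher and 143 lower. The median exon length was 1729 nucleotides for the higher genes, 3944 for the lower genes and 3991 for all genes tested. Protein-coding genes with 300 to 600 nucleotides of exon numbered 86 and had a median log2 change of 1.01, and 40 of them were higher. The 2439 genes of 8000 nucleotides or more had a median of -0.10. In 10 µg/kg against vehicle the same bins had medians of 0.22 and -0.01. With each library's trend with exon length and GC content removed, 493 genes were called, 352 higher and 141 lower. Of these, 407 were among the 770. The 86 short genes then had a median of 0.51.

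Of the 10 largest rises by the rule for named genes, Cyp1a1, Cyp1b1 and Ahrr were known AhR targets. The promoters of the targets on the list, 250 bases before to 50 bases after the annotated start, were read from RefSeq (GRCm38.p6), and 8 of the 9 listed genes had an entry. The core GCGTG or its reverse complement CACGC occurred in 4 of these 8, in 51.8% of the 328 higher genes with an entry, in 48.3% of 118 lower genes, in 53.9% of 10895 genes tested and in 32.4% of all 32851 promoters. The last share counts single promoters, whereas a gene was counted if any of its promoters held the core, so the last share is in another unit. The motif was thus no more frequent in the window of the called genes than in that of the tested genes. Shown first are the 4 promoters that held it, with the core in capitals, and then that of Cyp1a2, which held none. They lie at chr9:57697363-57697662 (Cyp1a1, plus strand), chr17:79715012-79715311 (Cyp1b1, minus), chr13:74292282-74292581 (Ahrr, minus), chr3:65528197-65528496 (Tiparp, plus) and chr9:57683606-57683905 (Cyp1a2, minus), and each reads 5′ to 3′ along the gene.
Cyp1a1: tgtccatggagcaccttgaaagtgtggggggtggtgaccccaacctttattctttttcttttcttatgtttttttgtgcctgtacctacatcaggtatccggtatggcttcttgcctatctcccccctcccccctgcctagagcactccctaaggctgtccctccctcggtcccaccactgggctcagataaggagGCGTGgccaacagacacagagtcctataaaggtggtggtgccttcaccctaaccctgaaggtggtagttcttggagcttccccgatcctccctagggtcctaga
Cyp1b1: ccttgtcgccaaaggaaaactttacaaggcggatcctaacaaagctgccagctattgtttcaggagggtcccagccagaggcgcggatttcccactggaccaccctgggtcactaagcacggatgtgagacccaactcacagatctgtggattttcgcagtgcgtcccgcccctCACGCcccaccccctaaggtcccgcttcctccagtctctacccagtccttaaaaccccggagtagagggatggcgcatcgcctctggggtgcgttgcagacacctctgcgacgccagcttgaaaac
Ahrr: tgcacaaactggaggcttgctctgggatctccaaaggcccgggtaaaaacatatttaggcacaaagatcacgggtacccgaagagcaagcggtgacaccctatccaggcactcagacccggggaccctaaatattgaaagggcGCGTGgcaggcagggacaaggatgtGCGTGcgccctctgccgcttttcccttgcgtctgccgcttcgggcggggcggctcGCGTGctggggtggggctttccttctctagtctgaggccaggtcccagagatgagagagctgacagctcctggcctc
Tiparp: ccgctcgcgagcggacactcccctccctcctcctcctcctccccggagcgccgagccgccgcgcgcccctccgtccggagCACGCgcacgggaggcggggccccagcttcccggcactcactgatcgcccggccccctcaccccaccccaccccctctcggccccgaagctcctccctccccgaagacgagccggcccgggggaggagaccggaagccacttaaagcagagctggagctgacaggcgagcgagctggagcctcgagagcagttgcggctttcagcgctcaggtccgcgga
Cyp1a2: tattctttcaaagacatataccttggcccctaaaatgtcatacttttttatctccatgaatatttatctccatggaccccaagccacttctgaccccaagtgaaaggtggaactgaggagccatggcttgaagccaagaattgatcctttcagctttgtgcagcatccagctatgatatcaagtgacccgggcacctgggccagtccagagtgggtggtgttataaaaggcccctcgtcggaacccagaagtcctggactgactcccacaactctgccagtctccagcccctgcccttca

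The core began 54 bases before the start in Cyp1a1, 76 in Cyp1b1 and 170 in Tiparp, and 107, 82 and 27 in Ahrr, the only promoter of these with 3 copies. A match is a description of letters in this window and not a site of binding. No core was found in the windows of Nqo1, Ugt1a6a or Ugt1a7c.

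Cyp1a1, which oxidises aromatic hydrocarbons, had 141, 68.7 and 22.2 CPM at 3 µg/kg and 3084, 3247 and 2605 CPM at 30 µg/kg. The groups were far apart although the 3 µg/kg libraries themselves spread more than 6-fold. The log2 change was 5.27 ± 0.52 (standard error, n = 3 and 3; adjusted p = 8.6e-05, edgeR). Cyp1b1, a second family member that also acts on steroids, had 3.17, 5.19 and 3.69 CPM at 3 and 114, 92.8 and 102 CPM at 30 µg/kg. Its log2 change was 4.67 ± 0.21 (adjusted p = 3.09e-07, edgeR). Cyp1a2, abundant in liver, had 0 counts in the 3 libraries of 3 µg/kg and 27, 20 and 33 counts at 30 µg/kg. Against a floor of 3 counts over the group it was at least 25.7-fold higher. Vehicle, however, held 20, 50 and 15 counts of Cyp1a2 and 10 µg/kg only 3, 4 and 7, and its change differed from that of 10 µg/kg against vehicle (adjusted p = 0.0008, edgeR).

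The repressors and conjugating enzymes followed with smaller changes. Ahrr, which competes with the receptor for ARNT, had 3.62, 4.78 and 4.05 CPM at 3 and 58.0, 42.3 and 56.0 CPM at 30 µg/kg, a log2 change of 3.65 ± 0.21 (adjusted p = 6.7e-07, edgeR). Tiparp, an ADP-ribosyltransferase that marks the receptor for removal, had 59.8, 40.4 and 41.0 CPM at 3 and 101, 110 and 92.5 CPM at 30 µg/kg. Its log2 change was 1.11 ± 0.14 (adjusted p = 0.000454, edgeR), with a gene on the opposite strand whose reads cannot be told apart, since the strand setting is not given in the sources used here. Ugt1a7c, a glucuronosyltransferase, had 134, 112 and 95.4 CPM at 3 and 298, 309 and 281 CPM at 30 µg/kg, a log2 change of 1.38 ± 0.12 (adjusted p = 4.05e-05, edgeR). The Ugt1a genes share their last exons, and reads assigned to several genes at once were left out of the gene counts.

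Not every classical target passed. Nqo1, a quinone reductase, had 18.2, 19.2 and 18.1 CPM at 3 and 29.1, 23.3 and 21.4 CPM at 30 µg/kg, which did not overlap, and a log2 change of 0.41 ± 0.17 (adjusted p = 0.136, edgeR). Ugt1a6a had 11.2, 9.27 and 7.74 against 12.9, 20.5 and 14.5 CPM, a log2 change of 0.76 ± 0.23 (adjusted p = 0.059, edgeR). Aldh3a1, an aldehyde dehydrogenase, was too low to be tested, with 0 counts in the 3 libraries of 3 µg/kg and 0, 0 and 1 at 30 µg/kg. Of the 8 members tested 6 were higher and 0 lower, with a median log2 change of 2.51. The 7 genes of the receptor machinery, among them Ahr, Arnt and the chaperones, had a median of -0.04, and 0 were called.

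**Figure D1:**
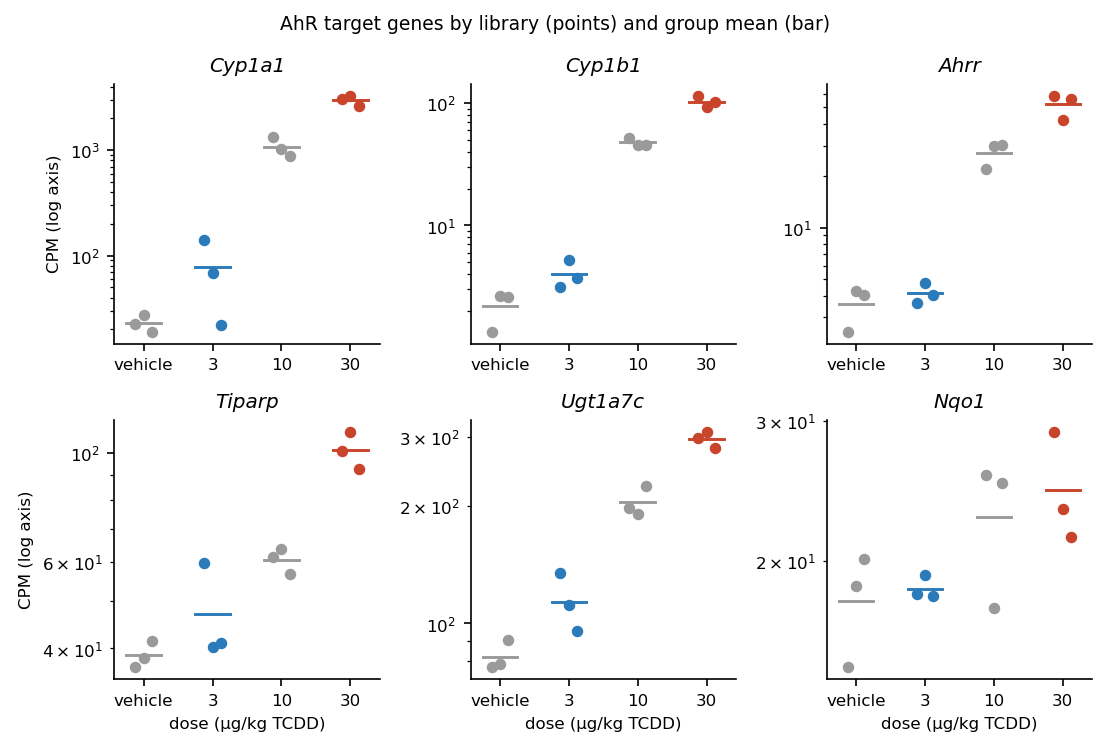
CPM (log axis) of 6 AhR target genes in each library against dose in µg/kg, with points for the 3 libraries of each group and bars for group means. Cyp1a1, Cyp1b1 and Ahrr climb steeply between 3 and 10 µg/kg and less between 10 and 30 µg/kg, whereas Nqo1 stays between 14.7 and 29.1 CPM throughout.

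The 10 µg/kg libraries show on which side of the range the rises took place. Cyp1b1 had 52.3, 45.9 and 45.9 CPM at 10 µg/kg, and Ahrr had 21.9, 29.6 and 30.4 CPM. The step from 10 to 30 µg/kg minus the step from 3 to 10 µg/kg was -2.46 ± 0.31 on the log2 scale for Cyp1b1 (adjusted p = 0.0028, edgeR) and -1.78 ± 0.32 for Ahrr (adjusted p = 0.04, edgeR), so the first step was the larger one for both. For Cyp1a1 the steps were 3.80 and 1.47, and the difference of -2.33 ± 0.73 was not called (adjusted p = 0.42, edgeR). Across all genes 48 were called in this test of the steps, 0.303% of those tested.

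Other biotransformation genes moved little as groups. Of 20 phase II genes 2 were higher and 0 lower, with a median log2 change of 0.10. These were Gstm2, with 7.24, 7.76 and 6.39 CPM at 3 and 13.6, 13.5 and 15.8 CPM at 30 µg/kg, and Gsta4, with 13.7, 10.8 and 11.4 against 23.4, 31.7 and 21 CPM. Both encode glutathione transferases, and their log2 changes were 1.01 ± 0.18 (adjusted p = 0.00513, edgeR) and 1.08 ± 0.21 (adjusted p = 0.00883, edgeR). Of 19 P450 genes of families 2, 3 and 4, Cyp2s1 and Cyp2j6 were higher and Cyp4f16 lower. Cyp4f16, a fatty acid hydroxylase, had 103, 78.3 and 91.9 CPM at 3 and 48.3, 39.3 and 43.4 CPM at 30 µg/kg, a fall of 1.06 ± 0.13 on the log2 scale (adjusted p = 0.000312, edgeR). The call of Cyp2s1 (0.70, log2) was lost without replicate 2 or 3 of 3 µg/kg or replicate 2 of 30 µg/kg, and that of Cyp2j6 (0.78) also without replicate 1 of 30 µg/kg. Of 16 NRF2 genes Fth1 alone was higher, a ferritin chain with a log2 change of 0.67 ± 0.15 (adjusted p = 0.0136, edgeR) that lost its call without replicate 3 of 30 µg/kg.

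The metallothioneins Mt1 and Mt2, which bind zinc and cadmium and were chosen here after their values were seen, were higher in both pairs of doses. Mt1 had 382, 292 and 154 CPM at 3 and 898, 747 and 673 CPM at 30 µg/kg, a log2 change of 1.49 (adjusted p = 0.0046, edgeR). Mt2 had 153, 154 and 72.2 CPM against 352, 327 and 264 CPM, a log2 change of 1.32 (adjusted p = 0.0144, edgeR). In 10 µg/kg against vehicle the log2 changes were 1.28 and 1.90.

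Genes of 3 secretory lineages were higher at 30 µg/kg. In these scrapings more cells of a type and more RNA per cell cannot be told apart. Of 20 Paneth cell genes tested 11 were higher and 0 lower, with a median log2 change of 1.06. Paneth cells sit at the crypt base and release antimicrobial peptides. The summed level of 22 Paneth genes was 873 to 2191 CPM at 3 and 2880 to 4022 CPM at 30 µg/kg, without overlap, and replicate 1 of 3 µg/kg was the lowest of the 6. Lyz1, lysozyme, had 313, 678 and 773 CPM at 3 and 1013, 1383 and 1444 CPM at 30 µg/kg, a log2 change of 1.12 (adjusted p = 0.0289, edgeR). Defa24 and Itln1, the next most abundant, had log2 changes of 0.79 and 0.78 and were not called (adjusted p = 0.119 and 0.0755, edgeR).

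The largest Paneth changes were in alpha-defensins, whose genes are near-identical copies, so that counts of single members are uncertain. Defa22 had 25.4, 42.6 and 59.3 CPM at 3 and 139, 233 and 255 CPM at 30 µg/kg, a log2 change of 2.30 ± 0.30 (adjusted p = 0.000628, edgeR). Defa23, Defa21 and Defa29 had log2 changes of 2.38, 1.94 and 1.62, each with libraries of 30 µg/kg above those of 3 µg/kg. Pnliprp2, a lipase of the Paneth list, had 21, 19.0 and 17.9 CPM at 3 and 66.6, 81.3 and 62.2 CPM at 30 µg/kg, a log2 change of 1.86 ± 0.25 (adjusted p = 0.000789, edgeR). Without replicate 2 or replicate 3 of 30 µg/kg 7 of the Paneth genes were called, and with the length and GC trend removed also 7. In 10 µg/kg against vehicle the median was 0.51 and 2 were higher.

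Goblet cells make the mucus layer, and of 18 of their genes 6 were higher and 0 lower, with a median log2 change of 0.55. Zg16, a lectin that binds bacteria in mucus, had 876, 759 and 647 CPM at 3 and 1866, 2180 and 2106 CPM at 30 µg/kg, a log2 change of 1.43 ± 0.15 (adjusted p = 0.000118, edgeR). Spink4 had 45.8, 66.0 and 63.2 CPM against 175, 148 and 150 CPM, also 1.43 ± 0.15 (adjusted p = 0.000112, edgeR). Zg16 and Spink4 did not move this way in 10 µg/kg against vehicle, with log2 changes of -0.48 and -0.40, and for both the difference between the pairs was called (adjusted p = 0.00032 and 0.00039, edgeR). Atoh1, the transcription factor that directs cells to secretory fates, had 18.2, 14.5 and 14.7 CPM against 26.6, 28.3 and 30.6 CPM, a log2 change of 0.85 ± 0.13 (adjusted p = 0.00169, edgeR). Tff3 and Klk1 each had 0.84. The most abundant goblet genes, Fcgbp and Muc2, had log2 changes of 0.25 and 0.45 and were not called (adjusted p = 0.365 and 0.0552, edgeR). Without replicate 1 of 3 µg/kg 10 goblet genes were called.

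Enteroendocrine cells release gut hormones, and 4 of 24 of their genes were higher, with 0 lower and a median log2 change of 0.44. Sct, secretin, had 13.3, 13.8 and 12.6 CPM at 3 and 23.9, 28.4 and 27.5 CPM at 30 µg/kg, a log2 change of 1.01 ± 0.12 (adjusted p = 0.000301, edgeR). Cck, cholecystokinin, had 7.46, 7.47 and 5.16 CPM against 14.2, 12.7 and 14.8 CPM, a log2 change of 1.06 ± 0.17 (adjusted p = 0.00229, edgeR). Ghrl and Insm1 had 1.07 and 0.95 and lost their calls in 4 and 3 of the 6 fits without 1 library. With the length and GC trend removed 1 of the 24 was called, and without replicate 2 or 3 of 3 µg/kg 2 were. Chgb and Chga, the secretory granule proteins with the highest levels, had log2 changes of 0.43 and 0.54 with adjusted p of 0.0197 and 0.0105 (edgeR), below the fold condition. Gip, the third, had -0.04.

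Other cell types of the epithelium gave at most 2 calls a list. The share higher was 7.14% of villus tip genes and 13.3% of stem cell and Wnt genes, against 3.61% of all genes tested. Of 14 villus tip genes Cdkn1a, a cell cycle inhibitor, was higher by 0.60 on the log2 scale and lost its call without replicate 2 or 3 of 3 µg/kg. Of 15 stem cell and Wnt genes Cdca7 and Msi1 were higher by 0.71 and 0.88, and each lost its call in at least 4 of the 6 fits without 1 library. Of 38 proliferation genes and 12 tuft cell genes 0 were called, with medians of 0.19 and -0.26.

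Markers of cells beneath the epithelium were also measured beside these groups. Of 13 macrophage and dendritic genes 3 were higher and 0 lower, and the summed level of 15 such genes was 59.4 to 75.1 CPM at 3 and 107 to 109 CPM at 30 µg/kg. This level was 77.1 to 109 CPM in vehicle and 59.4 to 89.5 CPM at 10 µg/kg. The median log2 change of the list was 0.29 in 30 against 3 µg/kg, 0.03 in 30 µg/kg against vehicle and -0.42 in 3 µg/kg against vehicle. C1qa, a complement subunit, had 6.41, 7.82 and 8.50 CPM against 14.4, 17.9 and 19.6 CPM, a log2 change of 1.19 ± 0.18 (adjusted p = 0.0017, edgeR). Csf1r, the receptor for macrophage growth factor, had a log2 change of 0.92 ± 0.16 (adjusted p = 0.00418, edgeR), C1qc had 0.95, and Itgax had -0.01. The call of C1qc was lost without replicate 1 or 2 of either group. The summed level of 18 B and plasma cell genes was 895 to 1383 CPM at 3, 1540 to 1855 CPM at 30 µg/kg and 1222 to 2545 CPM in vehicle. Of 17 tested 0 were called, 6 had a log2 change above 0, and the median was -0.83. The most abundant genes of this list, Igha, Igkc and Jchain, had log2 changes of 0.47, 0.89 and -0.43. Smooth muscle, endothelial, and fibroblast genes had 0 calls among 13, 10 and 13 tested, with summed ranges of 349 to 453 against 322 to 417, 34.1 to 50.8 against 59.5 to 63.5, and 91.7 to 208 against 142 to 211 CPM. The part of these cells in the other results was not tested.

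**Figure D2:**
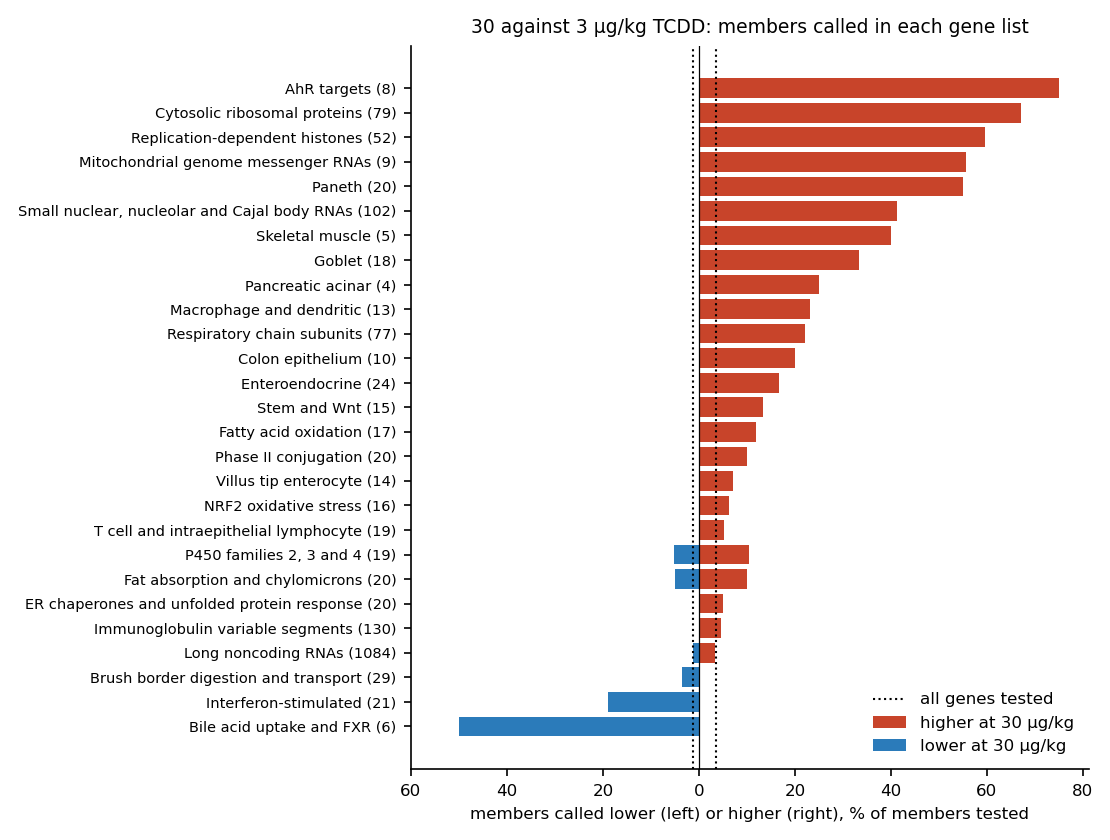
Percent of tested members called higher (right) or lower (left) at 30 than at 3 µg/kg for every list with at least 1 call, with the number tested in parentheses. Dotted lines mark all genes tested, 3.61% higher and 1.25% lower, and the AhR, ribosomal protein, histone, mitochondrial and Paneth lists reach furthest to the right.

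Cytosolic ribosomal proteins, the protein parts of the ribosome, were higher as a family. Of 79 tested 53 were higher and 0 lower, with a median log2 change of 0.69. The summed level of 82 such genes was 4365, 5182 and 4992 CPM at 3 and 8099, 8431 and 8036 CPM at 30 µg/kg, against 4358 to 4752 CPM in vehicle and 4547 to 5317 CPM at 10 µg/kg. The 30 µg/kg libraries thus stood above all others, and those of the other 3 groups overlapped. Rps28, chosen like the next after its values were seen, had a mean of 9.56 ± 0.76 (SD, n = 3) CPM at 3 and 39.0 ± 0.81 CPM at 30 µg/kg, a log2 change of 2.03 ± 0.11 (adjusted p = 5.29e-07, edgeR). Rpl41 had 92.8 ± 6.92 and 322 ± 9.38 CPM, a log2 change of 1.80 ± 0.09 (adjusted p = 4.11e-07, edgeR). With the length and GC trend removed 41 were higher, with a median of 0.59. Many of these genes have processed copies in the genome, so that reads with more than 1 place are missing from their counts.

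The rise of the ribosomal proteins lay between 10 and 30 µg/kg. The median log2 change was 0.06 from 3 to 10 and 0.70 from 10 to 30 µg/kg, and 14 of the 79 genes were called in the test of the steps. For Rps28 the steps were 0.13 and 1.90, a difference of 1.78 ± 0.20 (adjusted p = 0.0015, edgeR). For Rpl41 they were 0.07 and 1.73, a difference of 1.66 ± 0.16 (adjusted p = 0.00038, edgeR). This order of steps was the opposite of that of Cyp1b1 and Ahrr. Of the 26 higher genes called in the test of steps, 23 had the larger second step, and the other 3 were Cyp1b1, Ahrr and Aqp8.

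Replication-dependent histone genes, short and mostly without poly-A tails, had 31 of 52 higher and 0 lower, with a median log2 change of 1.10. Their summed level was 430, 619 and 668 CPM at 3 and 1201, 1076 and 1170 CPM at 30 µg/kg. Without replicate 1 of 30 µg/kg 20 were called, and with the length and GC trend removed 15. Of 9 tested messenger RNAs of the mitochondrial genome 5 were higher, with a median of 0.61 and a summed level of 20037 to 23354 CPM at 3 and 28338 to 31457 CPM at 30 µg/kg. All transcripts of the mitochondrial genome held 2.86 to 3.13% of gene counts at 3, 3.73 to 3.87% at 30 µg/kg, and 2.87 to 3.91% in vehicle. Nuclear subunits of the respiratory chain had 17 of 77 higher and 0 lower, with a median of 0.26, and 6 with the trend removed.

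Small nuclear, nucleolar and Cajal body RNAs, which guide the splicing and modification of other RNAs, had 42 of 102 higher and 0 lower, with a median log2 change of 0.80. With the length and GC trend removed 25 were higher and 2 lower. Their summed level, dominated by a few members, overlapped between the groups, with 1659, 1895 and 1212 CPM at 3 and 1845, 2072 and 2392 CPM at 30 µg/kg. Gm25776, a nucleolar RNA, had 0.98, 1.34 and 0.938 CPM at 3 and 11.1, 10.5 and 17.0 CPM at 30 µg/kg, a log2 change of 3.55 ± 0.35 (adjusted p = 8.91e-05, edgeR). It had 19.9, 9.48 and 9.55 CPM in vehicle and 2.37, 1.59 and 1.90 CPM at 10 µg/kg. Gm24407, a nuclear RNA, had 0.754, 0.700 and 0.821 against 5.41, 5.86 and 5.96 CPM, a log2 change of 2.91 ± 0.29 (adjusted p = 8.91e-05, edgeR).

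For some of these RNAs the levels of vehicle and 30 µg/kg both lay above those of 3 and 10 µg/kg. Rpph1, the RNA of RNase P, and Rmrp, that of RNase MRP, were named after their values were seen. Rpph1 had 2007, 1804 and 1389 CPM at 3 and 9481, 11728 and 10056 CPM at 30 µg/kg, a log2 change of 2.59 ± 0.15 (adjusted p = 6.7e-07, edgeR). In vehicle it had 4125, 3749 and 3870 CPM and at 10 µg/kg 1910, 1852 and 1974 CPM. Rmrp had 213, 235 and 184 CPM at 3, 971, 967 and 1045 CPM at 30 µg/kg, 447 to 543 CPM in vehicle and 231 to 279 CPM at 10 µg/kg. Both were lower at 10 µg/kg than in vehicle, with log2 changes of -1.03 and -0.97 (adjusted p = 0.0044 and 0.00168, edgeR).

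This order was seen in part of the called genes. The group means of vehicle and 30 µg/kg both lay above those of 3 and 10 µg/kg for 267 of the 572 higher genes (46.7%), against 23.6% of all genes tested. Both lay below for 112 of the 198 lower genes (56.6%), against 23.2% of all. Means in the full order vehicle, 3, 10 and 30 µg/kg were found for 140 of the higher genes (24.5%), against 7.72% of all, and in the reverse order for 26 of the lower genes (13.1%), against 7.34%. The choice of the called genes fixes the order of 3 and 30 µg/kg, whereas all genes tested include both orders. That choice by itself raises the shares of the called genes above those of all genes. The shares are therefore descriptions, and whether any order was in excess among the called genes was not tested. The share of reads assigned to several genes grouped the libraries in the same pairs, and its part in these changes was not tested.

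**Figure D3:**
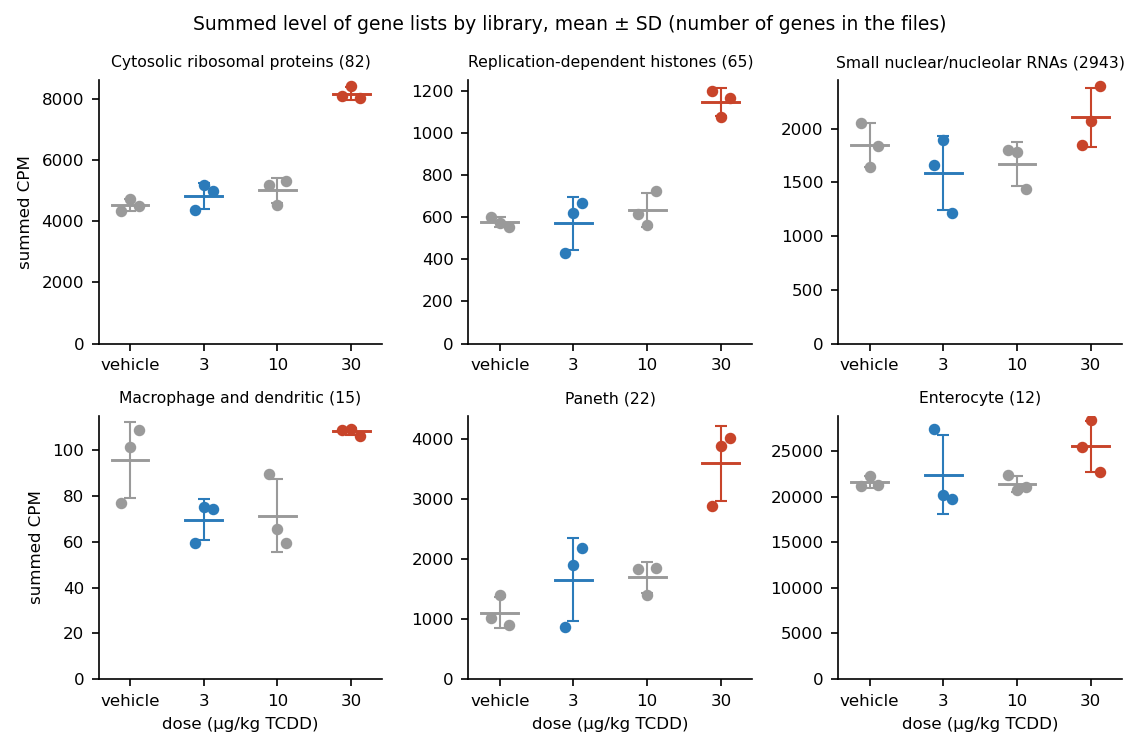
Summed CPM of 6 gene lists in each library against dose in µg/kg, with points for the 3 libraries of each group, bars for means and whiskers for SD. Ribosomal proteins and histones at 30 µg/kg lie above every other library, while the enterocyte sums at 3 and 30 µg/kg overlap.

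Among the largest rises outside these families were genes linked to muscle. Acta1, skeletal muscle actin, had 5.35, 4.67 and 3.40 CPM at 3 and 121, 197 and 76.9 CPM at 30 µg/kg, a log2 change of 4.89 ± 0.41 (adjusted p = 2.5e-05, edgeR). It also had 25.8, 25.8 and 41.3 CPM at 10 µg/kg against 5.24, 2.31 and 1.99 CPM in vehicle. Actin genes are similar in sequence and Acta1 overlaps a gene on the other strand, so its counts carry that doubt. Apobec2, a deaminase relative found in muscle, had 0.603, 1.69 and 1.11 CPM at 3 and 10.7, 2.04 and 10.2 CPM at 30 µg/kg, a log2 change of 2.74 ± 0.60 (adjusted p = 0.0143, edgeR) that was lost without replicate 3 of 3 or replicate 1 of 30 µg/kg. The log2 changes of Mylpf, Ttn and Neb were -0.35, -0.42 and -0.88, and none was called. Myh1, Myh2, Myh4, Myl1 and Pvalb had 0 counts in all 6 libraries, and Tnni2 had 1 count in 1 of them. The summed level of 16 skeletal muscle genes was 9.91 to 11 CPM at 3 and 91.4 to 202 CPM at 30 µg/kg, nearly all of it Acta1 at 30 µg/kg.

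Gm42826, with 3.69, 2.57 and 3.34 CPM at 3 and 18.3, 20.7 and 23.0 CPM at 30 µg/kg, had a log2 change of 2.69 ± 0.17 (adjusted p = 2.04e-06, edgeR). Its level in vehicle was 19.9, 16.2 and 14.3 CPM. Gm10801 and Gm10717 had log2 changes of 2.72 and 2.71, with the 3 libraries of 30 µg/kg between 40.8 and 137 CPM for Gm10801. Acaa1b, a peroxisomal thiolase, had a log2 change of 1.22 and lost its call in 4 of the 6 fits without 1 library. Aqp8, a water channel of the colon, had 1 count in all at 3 and 23 at 30 µg/kg, a ratio of 22.2 with a counting interval of 3.61 to 915. Its level at 10 µg/kg was higher, with 5.61, 4.71 and 4.83 CPM. Ctrb1, a pancreatic protease, had 2 and 25 counts, a ratio of 12.1 (3.01 to 105). Vehicle held 34, 58 and 47 counts of Ctrb1, and its log2 change in 30 µg/kg against vehicle was -2.14 (adjusted p = 0.0198, edgeR). Aqp8 lost its call in 5 and Ctrb1 in 4 of the 6 fits without 1 library. They were among 2 of 10 colon and 1 of 4 pancreatic acinar genes called. The summed acinar level was 2.34 to 3.87 CPM at 3, 3.11 to 3.66 CPM at 30 µg/kg and 10.6 to 13.0 CPM in vehicle.

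Of the 198 lower genes Fabp6 had the largest fitted fall, and 3 of 6 bile acid genes tested were lower. Fabp6 and Fgf15 passed the filter only through their counts at 3 µg/kg. With at least 10 counts required in every library, 0 genes of this list were called. Fabp6 had 38.3, 32.4 and 22.9 CPM at 3 µg/kg and 0, 0.178 and 0.109 CPM at 30 µg/kg. The summed counts were 1454 and 4, a ratio of 376 with a counting interval of 147 to 1384 (exact binomial, 95%, counting error only), and the change was called (adjusted p = 3.09e-07, edgeR). Slc10a2, the apical transporter that takes up bile acids, had 16.4, 9.10 and 5.45 CPM at 3 and 0.867, 0.976 and 0.984 CPM at 30 µg/kg, a log2 change of -3.44 ± 0.55 (adjusted p = 0.00251, edgeR). Fgf15, the hormone that carries the bile acid signal to the liver, had 28, 32 and 24 counts at 3 and 0 counts in each library of 30 µg/kg, so it was at least 29.0-fold lower against a floor of 3 counts over the group.

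The libraries that stood apart here were those of 3 µg/kg. Fabp6 had 0.0563, 0.0925 and 0.0525 CPM in vehicle and 0.144, 0.145 and 0.306 CPM at 10 µg/kg. Slc10a2 had 0.451, 2.22 and 2.68 CPM in vehicle and 2.16, 1.45 and 0.979 CPM at 10 µg/kg. Fgf15 had 1, 3 and 0 counts in vehicle and 0 at 10 µg/kg. The 3 genes are expressed towards the distal end of the ileum. The 6 tested genes of this list had a median of -1.62, and the remaining 3, Slc51a, Slc51b and Nr1h4, had 0.24, 0.50 and 0.20 and were not called. Of 10 tested genes of regional identity, among them Gata4 and Cdx1, 0 were called, with a median of 0.06. The position along the gut from which each scraping came is not given in the labels and was not tested.

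Interferon-stimulated genes, which limit viruses and intracellular microbes, were called only as lower. Of 21 tested 0 were higher and 4 lower (19%, against 1.25% of all genes tested). A log2 change below 0 was found in 20, and the median was -0.56. Ifit1, which binds viral RNA, had 68.7, 74.3 and 107 CPM at 3 and 45.0, 26.5 and 39.2 CPM at 30 µg/kg, a log2 change of -1.17 ± 0.19 (adjusted p = 0.00304, edgeR) that kept its call in all 6 fits without 1 library. Igtp, a GTPase, had 53.4, 108 and 153 CPM at 3 and 36.6, 17.9 and 45.4 CPM at 30 µg/kg, a log2 change of -1.65 ± 0.45 (adjusted p = 0.038, edgeR). Its call was lost in 5 of the 6 fits without 1 library, all but that without replicate 1 of 3 µg/kg. Irgm1, with 26.2, 32.7 and 56.7 against 25.8, 14.0 and 17.5 CPM, and Rsad2, with 12.3, 27.5 and 44.3 against 9.13, 8.25 and 15.4 CPM, lost theirs in 4 of them. Of the 21 genes 6 were called without replicate 1 of 3 µg/kg, 1 or 2 without any other of the 6 libraries, 1 in the fit of the 6 libraries alone, and 2 with the length and GC trend removed.

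Outside that list, and named because they were among the 10 largest falls, were Ifi44, Gm12250 and Apol10b. Ifi44 had 7.91, 11.4 and 17.1 CPM against 5.92, 2.75 and 2.08 CPM, a log2 change of -1.74 ± 0.35 (adjusted p = 0.00914, edgeR). Gm12250, annotated as a processed pseudogene, had -1.42 ± 0.31 (adjusted p = 0.0148, edgeR) and lost its call without replicate 3 of 3 or replicate 2 of 30 µg/kg. Apol10b had -1.50 ± 0.40 (adjusted p = 0.0347, edgeR) and lost its call in 5 of the 6 fits without 1 library. Within the 3 µg/kg group replicate 1 was the lowest of the 3 libraries for Igtp, Ifit1, Rsad2, Irgm1, Ifi44 and Apol10b.

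**Figure D4:**
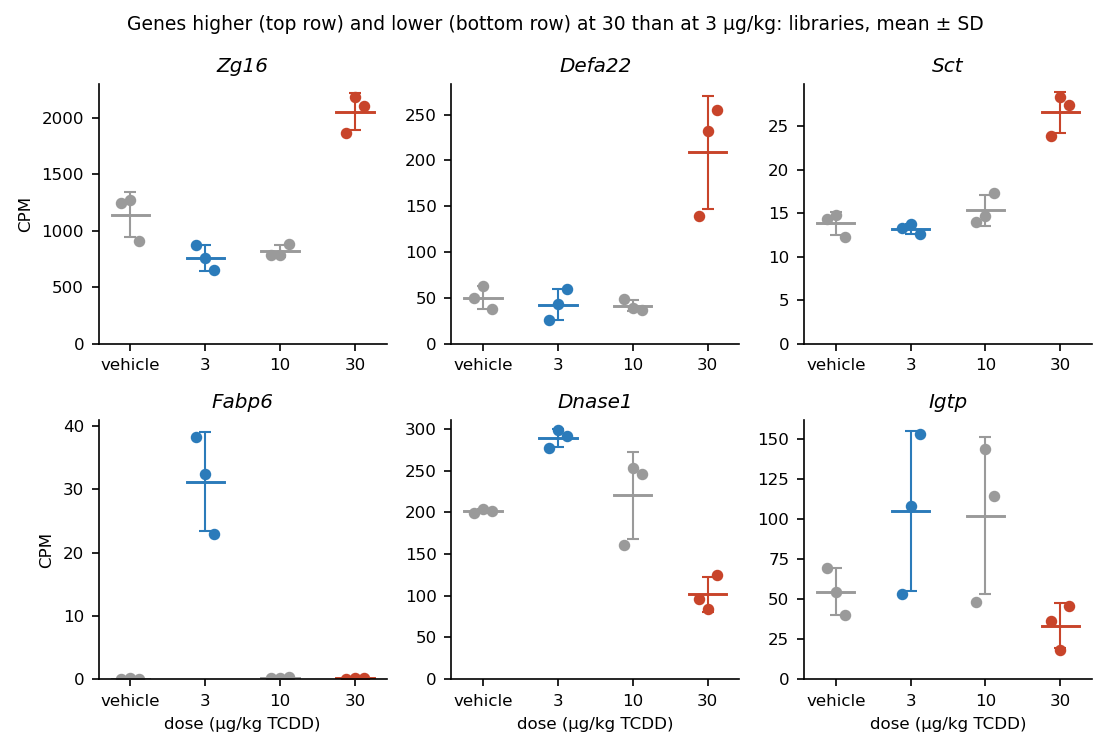
CPM in each library against dose in µg/kg for 3 genes higher and 3 genes lower at 30 than at 3 µg/kg, with points for libraries, bars for means and whiskers for SD. Fabp6 is visible at 3 µg/kg alone, Igtp spreads from 53.4 to 153 CPM within 3 µg/kg, and Zg16, Defa22 and Sct at 30 µg/kg lie above all other libraries.

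Of the other largest falls, Slc5a8, which carries lactate and short-chain fatty acids, had 167, 226 and 257 CPM at 3 and 66.0, 62.4 and 93.2 CPM at 30 µg/kg, a log2 change of -1.55 ± 0.29 (adjusted p = 0.00604, edgeR). Dnase1, a secreted nuclease, had 277, 298 and 291 CPM against 96.2, 84.0 and 124 CPM, a log2 change of -1.51 ± 0.17 (adjusted p = 0.000217, edgeR), with 199 to 204 CPM in vehicle. Zyg11a, a substrate receptor of a ubiquitin ligase, had 6.11, 8.28 and 6.92 CPM against 2.19, 2.49 and 2.62 CPM, a log2 change of -1.55 ± 0.17 (adjusted p = 0.000225, edgeR). Of 29 genes of brush border digestion and transport Slc13a1 alone was called, a sulfate transporter with 102, 36.4 and 37.5 CPM against 21.4, 14.0 and 7.66 CPM and a log2 change of -2.02 ± 0.55 (adjusted p = 0.038, edgeR). This call was kept in 1 of the 6 fits without 1 library.

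Cubn, the cubilin receptor that takes up intrinsic factor with cobalamin, had 1720, 463 and 399 CPM at 3 and 384, 341 and 158 CPM at 30 µg/kg. The groups did not overlap, but replicate 1 of 3 µg/kg held most of the difference, and the log2 change of -1.55 ± 0.59 was not called (adjusted p = 0.121, edgeR). Vehicle held 1108, 1450 and 1183 CPM of Cubn, and 10 µg/kg held 706, 221 and 185 CPM. Its log2 change in 30 µg/kg against vehicle was -2.08 and was not called (adjusted p = 0.0622, edgeR). Of 14 genes of cobalamin uptake and handling 0 were called, with a median of 0.13, and Amn, the partner of cubilin, had a log2 change of 0.36 (adjusted p = 0.176, edgeR). Propionyl-CoA breakdown genes also had 0 calls among 8 tested, with a median of -0.12. Of 20 genes of fat absorption Apoc3 and Scarb1 were higher, by 0.64 and 0.98, and lost their calls in 4 and 5 of the 6 fits without 1 library, and Fabp6 was the one lower. Of 20 genes of the unfolded protein response Manf was higher, with 61.7, 67.1 and 68.9 CPM against 112, 95.2 and 102 CPM and a log2 change of 0.64 ± 0.09 (adjusted p = 0.00135, edgeR). Of 19 genes of T cells and intraepithelial lymphocytes Cd3g was higher by 0.61 and lost its call without replicate 2 of 3 or replicate 3 of 30 µg/kg.

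The pair 10 µg/kg against vehicle, which shares no library with 30 against 3 µg/kg, called 97 genes (0.613%), 77 higher (0.487%) and 20 lower (0.126%). Of the 572 genes higher at 30 µg/kg, 52.3% had a change above 0 in this pair, against 48.6% of all genes tested. For the 198 lower genes 43.4% had a change below 0, against 51.4% of all. The median log2 change in this pair was 0.02 for the higher and 0.04 for the lower genes. Called the same way in both pairs were 31 of the higher (5.42%) and 0 of the lower genes, and called opposite ways were 11 and 4.

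The genes higher in both pairs included Cyp1a1, Cyp1b1, Ahrr, Ugt1a7c, Acta1, Mt1, Mt2, Klk1, Rpl27 and Rpl39. Ildr1, a tricellular junction protein named after its values were seen, had 5.65, 6.36 and 6.68 CPM at 3 and 38.2, 32.7 and 44.0 CPM at 30 µg/kg, a log2 change of 2.62 (adjusted p = 5.06e-06, edgeR). It had 4.00, 3.28 and 2.15 CPM in vehicle and 18.6, 22.5 and 22.6 CPM at 10 µg/kg, a log2 change of 2.76. The 11 genes higher at 30 µg/kg and lower at 10 µg/kg than in vehicle included Gm25776, Gm25394, Rpph1, Rmrp and Hist2h4. Those in the opposite direction included Slc6a14, Fa2h and 1810065E05Rik. Slc6a14, an amino acid transporter, had 1.36, 1.17 and 1.70 CPM at 3 and 0.051, 0.0888 and 0 CPM at 30 µg/kg. Its highest values, 5.39, 7.03 and 6.61 CPM, were at 10 µg/kg. 1810065E05Rik, like Slc6a14, peaked at 10 µg/kg, with 16.3, 17.8 and 13.9 CPM against 2.97 to 4.16 CPM at 3 µg/kg.

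The difference between the 2 pairs was itself tested and was called for 782 genes, 4.94% of those tested. These included 367 of the 770 called genes, 278 of those higher and 89 of those lower. By list it was called for 1 of 8 AhR targets (Cyp1a2), 5 of 20 Paneth genes, 4 of 18 goblet genes, 35 of 79 ribosomal proteins, 9 of 52 histones and 38 of 102 small nuclear and nucleolar RNAs. For Cyp1a1 the log2 change was 5.54 in 10 µg/kg against vehicle and 5.27 in 30 against 3 µg/kg, a difference of -0.27 (adjusted p = 0.83, edgeR). For the ribosomal proteins the medians were 0.13 and 0.69, and for the small RNAs -0.25 and 0.80. By its form this difference sets vehicle and 30 µg/kg together against 3 and 10 µg/kg. The share of reads assigned to several genes grouped the libraries in the same pairs. A preparation or run shared by these pairs cannot be told apart from dose in this test, which also holds for its calls of Zg16, Spink4 and Cyp1a2.

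**Figure D5:**
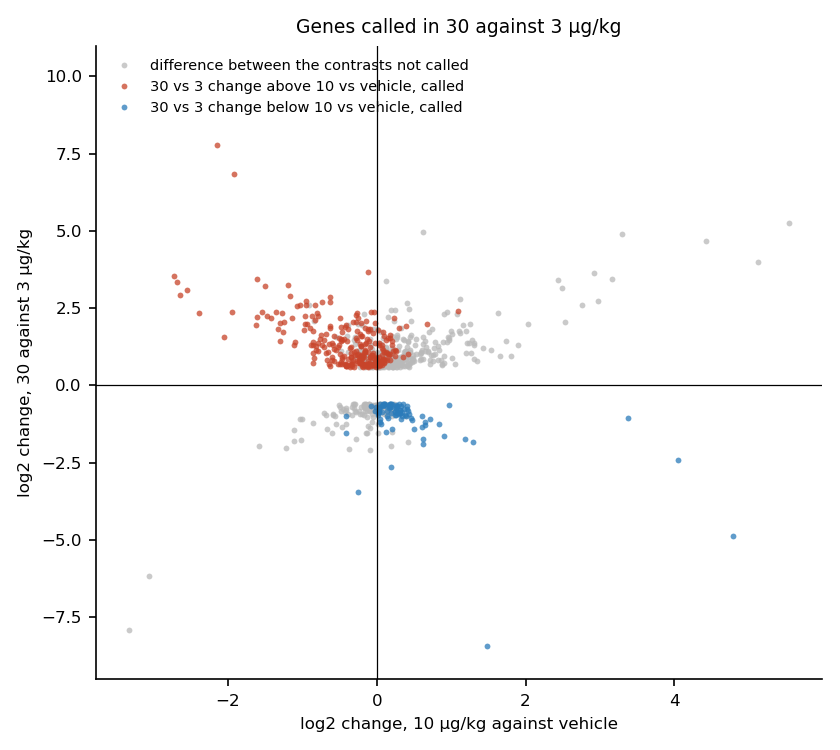
Log2 change in 30 against 3 µg/kg (vertical) against that in 10 µg/kg against vehicle (horizontal) for the 770 called genes, coloured by whether the difference between the pairs was called. Red marks 278 genes whose signed change was called higher in 30 against 3 µg/kg than in 10 µg/kg against vehicle and blue 89 whose signed change was called lower, and fitted values of genes with 0 counts in a group depend on the prior count.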

How the data were processed

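The series held RNA-seq libraries from scraped ileal epithelium, 12 in all and 3 for each group. The deposited values were raw counts of reads per Ensembl gene that the authors made, 1 library per file. Per the labels, libraries were prepared from total RNA with the Ovation Mouse RNA-Seq kit, and the submitters' processing notes list FastQC 0.11.3, Trimmomatic 0.33, TopHat2 2.1.0, SAMtools 1.2.0, HTSeq 0.6.1 and DESeq with build GRCm38. The annotation release and strand setting are not given in the sources used here, and 271 of the called genes overlap a gene on the opposite strand. Entries that name no gene held 60.3 to 64.6% of entries and were left out. Of 46078 genes in the files, 45229 matched GENCODE M21, used for symbols and exon lengths.

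The tests were run with edgeR (4.0.16, under R 4.3.3). After filterByExpr, libraries were scaled with TMM factors, and 1 quasi-likelihood model with 4 group means was fitted to all 12 libraries, so that groups shared the estimate of the spread. The contrasts were 30 against 3 µg/kg, 10 µg/kg against vehicle, the difference of these, and the difference of the dose steps 3 to 10 and 10 to 30 µg/kg. P-values were adjusted by Benjamini-Hochberg over the 15823 genes. Called means an adjusted p under 0.05 and at least 1.5-fold. Standard errors came from the F statistic. The fit was tested on simulated data. CPM are counts divided by the scaled library size. Replicates were numbered 1 to 3 in accession order. The labels do not say that the libraries come from separate animals, so p-values measure the spread between these libraries. An exact permutation test of 3 against 3 cannot go below 0.1 and was not used.

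Named genes were all AhR targets, called members of the other lists (at most 5 a list, by lowest p), the 10 largest rises and 10 largest falls (called, mean count of at least 50, no overlap of CPM), Cubn, and the 3 most abundant members of cell type lists whose summed level is given. Genes outside these were picked with their values in view, which the text says, or are the members of a small count. The comparison and the lists were chosen with earlier results of these data known. Promoter sequences came from RefSeq. Some genes that met the rule are not reported here. The alternatives tried were other scalings and filters, DESeq2 1.42.0, limma-voom (limma 3.58.1), library index (barcode) and clock covariates, removal of length and GC trends, the compared groups alone, the adjusted p alone, and leaving out each library.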

Additional observations from a re-analysis of the deposited data

How the results depend on the processing

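The count of 770 genes called in 30 against 3 µg/kg was 493 with the length and GC trend removed, 1448 with the adjusted p alone, and 504 to 852 when 1 of the 6 libraries was left out, with the lowest value without replicate 2 of 30 µg/kg. Under the other alternatives it ranged from 533 (the 6 libraries alone) to 1031 (clock score), and 733 of the 939 genes called by DESeq2 were among the 770. The share higher, 74.3%, was 55.2% with the adjusted p alone. The 97 genes of 10 µg/kg against vehicle became 215 without a filter, 262 with DESeq2, 59 with the index covariate, and 45 to 59 without 1 library. The 48 genes of the test of steps became 96 without a filter, 25 with at least 10 counts in every library, 137 with DESeq2, 20 with the index covariate, 91 with the clock score, and 15 to 69 without 1 library. The 782 genes of the difference between the pairs became 453 with the index covariate, 364 with the length and GC trend removed, and 355 to 1230 without 1 library, the extremes being without replicate 3 and replicate 1 of 3 µg/kg. The cause of these shifts was not tested. The fit of the compared groups alone gives no value for the last contrast, which uses all groups.

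The named genes counted here leave out the most abundant members of the cell type lists. Most of the rest were named because they were called. Of these 64 tested, 61 were called, and none changed direction under any alternative for 30 against 3 µg/kg. Of 757 gene values under the alternatives other than leaving out a library, 703 kept their side of the threshold, 48 lost the call and 6 gained it. The 703 include 64 values of the adjusted p alone, which is the same fit without the condition on fold. No call could be lost there, so these 64 are no check. The 3 scalings moved the median of all genes by at most 0.0102 on the log2 scale. With 3 libraries a group and 11695887 counts in the shallowest library, a low-count gene such as Ctrb1 is measured with wide counting error. No paired analysis was possible because no label ties an animal or replicate of one group to one of another, and replicate numbers here only follow accession order. Each of 3 library indexes, barcodes read from the names of the deposited files, occurred once in every group, and a fit with this shared index as a covariate, which is not a pairing of animals, was run: 630 genes were called in 30 against 3 µg/kg. Groups of 3 were too small for a test of outlying samples.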
